A study of Homo sapiens with 6 samples.

Results

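Expression of 185 zinc finger genes was followed in A549, an established line of human lung adenocarcinoma cells grown in DMEM with serum, with or without knockdown of METTL3, the catalytic subunit of the m6A writer complex. RNA was sequenced from 3 libraries of cells carrying an empty vector, which the sample titles number as replicates and whose genotype is given as WT, and from 3 numbered libraries of cells with METTL3 knockdown by short hairpin RNA (shMETTL3). The study's methods say in general that experiments were repeated independently, but not whether these libraries came from separate cultures. If they did not, p-values measure only a technical spread between libraries. Whether 1 hairpin or several were used is not stated for them. The genes were chosen by 2 criteria. Their symbol is ZNF followed by a number and at most 1 letter, and their mean level over all 6 libraries, in CPM (counts divided by the library total and set to a common total) before any further scaling, is at least 8. Of 57781 rows, 557 carry such a symbol and 185 of these reached the level. Of the other ZNF symbols, 197 lay under 8 CPM but had enough counts to be tested, and 175 did not.

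Most human zinc finger proteins of this kind carry tandem C2H2 fingers, in which a pair of cysteines and a pair of histidines hold a zinc ion and each finger reads a few bases of DNA. The largest subfamily adds an N-terminal KRAB domain, which recruits TRIM28 and, through it, SETDB1 and HP1 proteins, and is known for silencing transposable elements. Others carry a SCAN domain for pairing with one another, or work outside transcription on ribosomes, spliceosomes and kinetochores. KRAB zinc finger genes lie in tandem clusters, many on chromosome 19, and are typically expressed at a low level.

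METTL3 itself was at 49.4, 50.6 and 49.5 CPM in the vector libraries and at 18.9, 19.9 and 19.3 CPM in the shMETTL3 libraries. CPM here and below are scaled by TMM unless called unscaled. The groups did not overlap, and the shMETTL3 mean was 38.8% of the vector mean (log2 fold change -1.36, SE 0.067, adjusted p = 4.57e-16, edgeR's quasi-likelihood test). In a two-sided exact permutation test p was 0.1, which is the smallest possible with 3 libraries a group. Library totals ran from 14931426 to 19108928 counts. All 9 markers set for A549 had counts in every library, with sums of 28330 to 30038 unscaled CPM in vector and 19896 to 20601 in shMETTL3 libraries. ALDH1A1 was the highest, with group means of 13656 and 10026 unscaled CPM. EPCAM fell from 103 to 17.4, KRT19 from 63.7 to 13.5 and KRT8 from 5947 to 3155.5. AKR1C1 alone rose, from 1092 to 1423, and the rest were lower in shMETTL3 libraries. The alveolar markers NKX2-1, SFTPA1, SFTPB and SFTPC were at or near 0, with sums of at most 1.36 unscaled CPM. Markers of blood, endothelium, fibroblasts and liver, 11 in all, summed to 4.30 to 7.55 unscaled CPM in vector and 19.5 to 21.6 in shMETTL3 libraries, mostly COL1A1 and CD14, while CD3E, VWF and APOA1 were at 0. The part of these markers in the results was not tested.

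C2H2 fingers were found in 174 of the members, none were found in 7 and no coding sequence was read for 4. The coding bases of 1 finger and the linker after it are shown for ZNF268 and ZNF275, among the largest rises, and for ZNF581 and ZNF524, among the largest falls. They were read from the GRCh37 transcripts, and capitals mark the codons of the zinc-binding cysteines and histidines.
ZNF268 finger, chr12:133779188-133779271, plus strand: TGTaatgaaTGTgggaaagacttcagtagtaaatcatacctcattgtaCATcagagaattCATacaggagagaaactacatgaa
ZNF275 finger, chrX:152613026-152613109, plus strand: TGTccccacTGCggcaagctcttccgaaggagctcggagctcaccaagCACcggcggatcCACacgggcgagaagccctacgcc
ZNF581 finger, chr19:56156202-56156285, plus strand: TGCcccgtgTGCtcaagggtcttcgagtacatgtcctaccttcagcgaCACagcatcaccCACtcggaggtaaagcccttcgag
ZNF524 finger, chr19:56113824-56113907, plus strand: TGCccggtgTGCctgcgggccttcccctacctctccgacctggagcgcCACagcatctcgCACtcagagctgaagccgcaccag
The spacing of the capitals is the same in the 4 fingers. A KRAB A box was found in 88 members, and its coding bases are shown for 2 members that rose, ZNF268 and ZNF189, and for the 2 KRAB members with the largest falls, ZNF8 and ZNF552. Capitals mark the codons of a tryptophan, a leucine, a glutamine, a leucine and a tyrosine that are conserved in the box.
ZNF268 KRAB A box, chr12:133768075-133768182, plus strand: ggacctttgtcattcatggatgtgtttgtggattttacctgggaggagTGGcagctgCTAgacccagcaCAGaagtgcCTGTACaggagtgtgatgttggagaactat
ZNF189 KRAB A box, chr9:104162166-104162273, plus strand: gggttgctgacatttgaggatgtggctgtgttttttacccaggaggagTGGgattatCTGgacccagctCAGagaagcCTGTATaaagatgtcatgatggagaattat
ZNF8 KRAB A box, chr19:58797083-58797190, plus strand: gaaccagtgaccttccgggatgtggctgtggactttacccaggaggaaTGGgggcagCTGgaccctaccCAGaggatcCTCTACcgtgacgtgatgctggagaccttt
ZNF552 KRAB A box, chr19:58324681-58324788, minus strand: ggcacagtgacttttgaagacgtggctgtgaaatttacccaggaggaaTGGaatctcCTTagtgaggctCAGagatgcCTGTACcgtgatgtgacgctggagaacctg
Each stretch lies in a single coding exon.

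In the annotation of GRCh37, 184 of the 185 members were found, ZNF720 being the exception, and 181 of them are protein coding. The other 3, ZNF767P, ZNF252P and ZNF271P, are not. Translation of the longest coding transcript, read to its first stop, gave C2H2 fingers with no KRAB A box in 88 members, besides the 88 with the box. Neither motif was found in 5 (ZNF185, ZNF330, ZNF503, ZNF703 and ZNF839). The number of fingers ran from 0 to 36, with a median of 9. A SCAN domain was found in 16 members, 8 with and 8 without the KRAB A box. The members lay on 21 chromosomes.

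The level that selected the members ran from 8.02 to 201 unscaled CPM, with a median of 18.5, and single libraries held from 62 to 3956 counts of a member. Replicates were close, with SDs that were, at the median, 7.65% of a member's mean in the vector group and 4.52% in the shMETTL3 group. Just inside the threshold lay ZNF197 with a mean of 8.02, ZNF182 with 8.09 and ZNF551 with 8.17 unscaled CPM. Just outside lay ZNF283 with 7.92, ZNF789 with 7.82 and ZNF81 with 7.71. Since the mean was taken over both groups, 32 members stood under 8 unscaled CPM in 1 of the groups. Of these, 28 were called higher in shMETTL3 libraries, 2 were called lower and 2 were not called.

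Most of the zinc finger genes differed between the groups, and rises outnumbered falls. At an adjusted p under 0.05, 126 of 185 members were called, or 68.1%, against 66.6% of all 15125 genes tested, so that the share called was near the background. The directions were unequal. Of the members, 95 were called higher in shMETTL3 libraries, or 51.4%, against 33.7% of all tested genes, and 31 were called lower, or 16.8%, against 32.9%. Among the 9534 genes tested at the same minimum of 8 unscaled CPM, 73.7% were called, 35.1% higher and 38.6% lower. A level in these bulk libraries cannot tell fewer expressing cells from less RNA per cell. The median log2 fold change was 0.21 over the members, 0.0022 over all tested genes and -0.019 over those at 8 CPM or more. Restricted to the 153 members with at least 8 unscaled CPM in both groups, 67 were called higher and 29 lower, and the median was 0.13. With library size as the only scaling, which moved the median of all tested genes by 0.17, 124 members (67.0%) were called higher and 21 (11.4%) lower. Their median was 0.38. Of all tested genes 44.6% were then called higher and 23.2% lower, and of those at 8 CPM or more 49.1% and 26.4%. Under that scaling 39 of the 126 called members moved by over 1.5 times, 21 of them among the 31 called lower, and 10 of these 21 lost the call.

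Many changes were small. Of the 126 called members, 56 had an absolute log2 fold change under 0.5. With a log2 fold change of at least 1, 15 members were called, and 3 with one of -1 or below. Of all 15125 tested genes these were 1545 and 1123, and of the 9534 at 8 CPM or more 466 and 499. Among the 153 members with at least 8 unscaled CPM in both groups they were 5 and 2. The log2 fold changes ran from -1.23 to 1.65, with a median SE of 0.086. CPM values of the groups did not overlap for 132 members, or 71.4%, against 69.4% of all tested genes. The 95% intervals of the 59 members not called lay between -0.48 and 0.42.

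**Figure D1:**
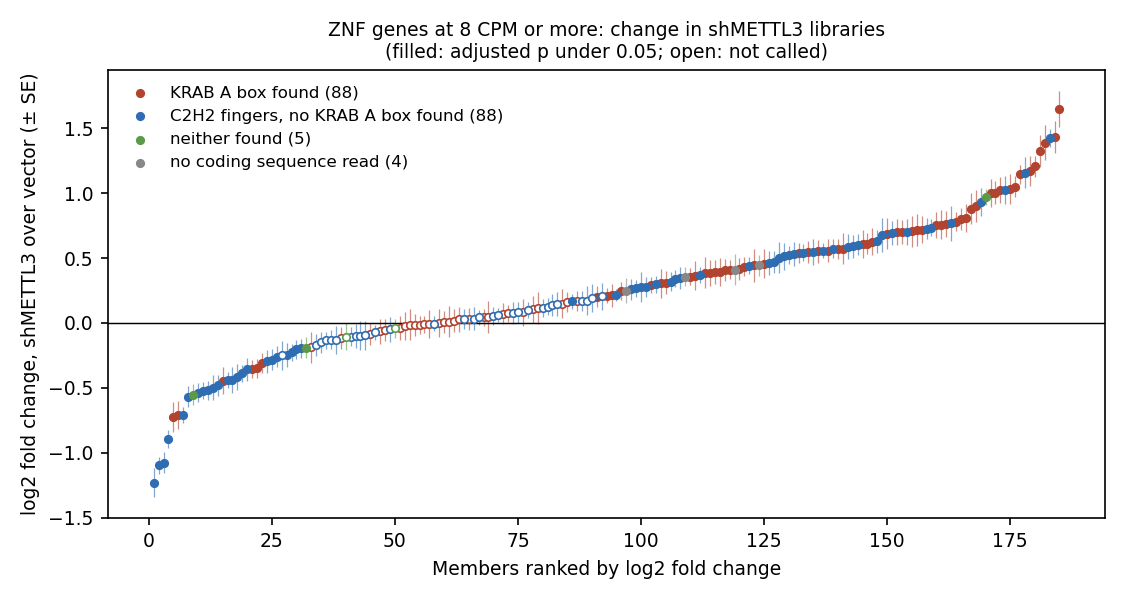
Log2 fold change of the 185 members in shMETTL3 over vector libraries (y axis), ranked from lowest to highest (x axis), with bars of 1 SE and colours by protein class. Filled points are the 126 called members, and most of the upper end is held by the 88 members with a KRAB A box.

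Counted together, transcripts of the 185 genes summed to 4506, 4432 and 4515 CPM in the vector libraries and to 5047, 5006 and 4964 CPM in the shMETTL3 libraries. The sums did not overlap, and the shMETTL3 mean of 5005 ± 41.5 CPM (SD, n = 3) was 1.12 times the vector mean of 4484 ± 45.4 CPM (SD, n = 3). In unscaled CPM the ratio was 1.26. The members took up 0.415% to 0.429% of all counts in vector and 0.525% to 0.540% in shMETTL3 libraries.

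The KRAB members held most of the rises. Of 88, 54 were called higher, 6 were called lower and 28 were not called, with a median log2 fold change of 0.39, or 1.31-fold. Relative to the vector mean, their median stood at 0.34, 0.40 and 0.35 in shMETTL3 replicates 1, 2 and 3, and between -0.0093 and 0.016 in the vector libraries. The 88 members with fingers but no KRAB A box were divided more evenly, with 36 called higher, 23 lower and 29 not called. Their median was 0.11, and stood at 0.097, 0.10 and 0.11 in the 3 shMETTL3 libraries. In the 65 KRAB members with at least 8 unscaled CPM in both groups the median was 0.21, with 34 called higher and 5 lower, and in the 80 without the box it was 0.070, with 29 called higher and 22 lower. The difference between the classes was not tested. Under scaling by library size alone, 66 KRAB members were called higher and 5 lower, and 53 without the box were called higher and 15 lower. Among all tested genes the shares were then 44.6% higher and 23.2% lower. Among those at 8 CPM or more they were 49.1% and 26.4%.

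**Figure D2:**
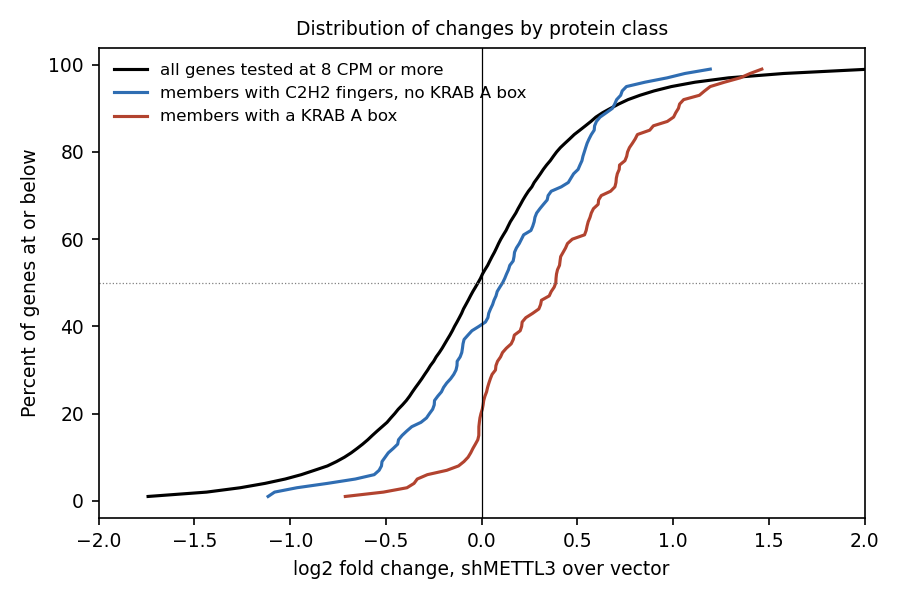
Percent of genes (y axis) at or below a log2 fold change (x axis) for the 88 KRAB members, the 88 C2H2 members with no KRAB A box and the 9534 genes tested at 8 CPM or more. At 50% the curves cross at 0.39, 0.11 and -0.019.

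ZNF268, a KRAB protein with 24 fingers found, had the largest rise. It stood at 5.13, 3.95 and 4.17 CPM in the vector libraries and at 16.8, 12.0 and 12.8 CPM in the shMETTL3 libraries (log2 fold change 1.65, SE 0.142, adjusted p = 6.27e-11, edgeR's quasi-likelihood test). All 3 shMETTL3 libraries were over 2 times any vector library. ZNF425, with 19 fingers, rose from 4.90, 4.61 and 4.35 CPM to 13.3, 11.6 and 12.7 CPM (log2 fold change 1.43, SE 0.122, adjusted p = 4.84e-11). ZNF71 rose from 4.29, 4.85 and 5.39 CPM to 12.8, 12.2 and 11.3 CPM (log2 fold change 1.32, SE 0.124). ZNF189, whose replicates were the closest of these, rose from 11.1, 10.8 and 10.5 CPM to 25.5, 24.6 and 24.7 CPM (log2 fold change 1.21, SE 0.084, adjusted p = 7.9e-13). In each of these genes at most 6.03% of the transcript's 50-base words occurred in other genes. ZNF268, ZNF425 and ZNF71 stood under 8 unscaled CPM in the vector group and entered the selection only through their shMETTL3 level. Their sizes, p-values and the distance between their groups are therefore a description.

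Beyond the KRAB class, ZNF518B, with 4 fingers, rose from 5.85, 6.28 and 5.76 CPM to 12.4, 12.6 and 15.2 CPM (log2 fold change 1.16, SE 0.118). Of the 8 largest rises, the remaining 3 were ZNF275, ZNF182 and ZNF41, all on chromosome X. Except for ZNF275 and ZNF189, the 8 genes were below 8 CPM in each vector library. Those below it entered the selection only through their shMETTL3 level, so that their sizes and p-values are a description.

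**Figure D3:**
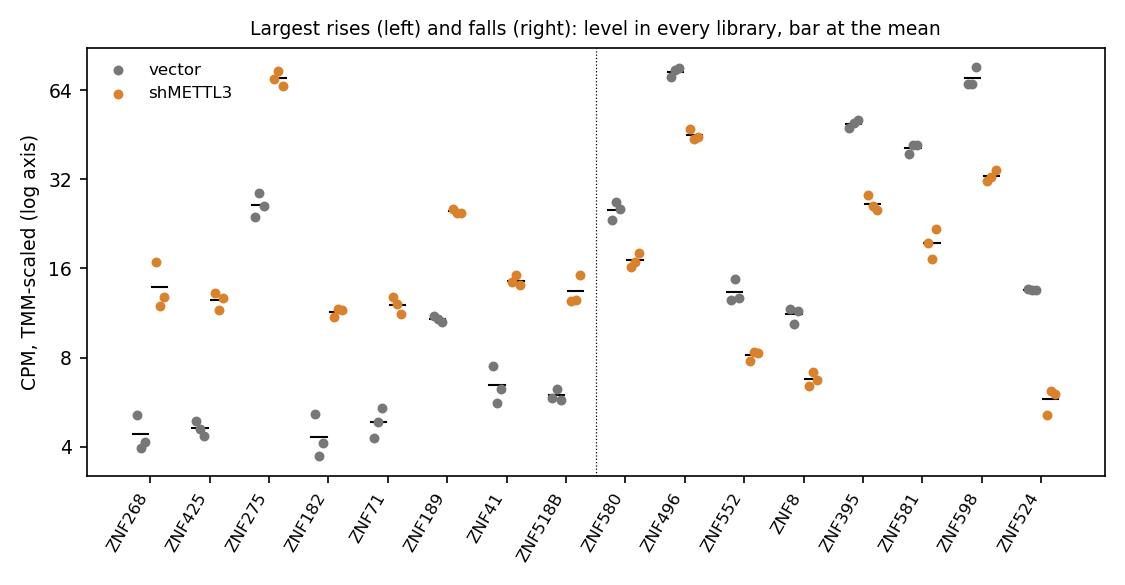
TMM-scaled CPM (log axis) of the 8 largest rises and the 8 largest falls among called members whose groups do not overlap, with 1 point per library and a bar at the group mean. Grey vector points and orange shMETTL3 points are separate in all 16 genes, and most of the rises start between 3.71 and 7.52 CPM.

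The largest falls were mostly of members with few fingers. ZNF524, with 4 fingers, stood at 13.6, 13.6 and 13.5 CPM in vector and at 5.13, 6.18 and 6.05 CPM in shMETTL3 libraries (log2 fold change -1.23, SE 0.114, adjusted p = 2.66e-10). ZNF598, the ubiquitin ligase that marks collided ribosomes, fell from 67.0, 67.1 and 76.5 CPM to 31.5, 32.6 and 34.3 CPM (log2 fold change -1.10, SE 0.066, adjusted p = 3.18e-14). ZNF581, with 4 fingers, fell from 39.1, 41.8 and 41.7 CPM to 19.5, 17.3 and 21.7 CPM (log2 fold change -1.08, SE 0.078). These 3 were the only members called at -1 or below. ZNF524 stood at 6.13 unscaled CPM in the shMETTL3 group and entered the selection only through its vector level. Its size and p-value are therefore a description. ZNF524 shares 10.2% of its transcript bases with exons of FIZ1 on the opposite strand and ZNF598 shares 14.9% with an unnamed gene there, and whether counting used strand is not given.

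ZNF395, known for a response to hypoxia, fell to 53.7% of its vector level, from 47.6, 49.6 and 50.8 CPM to 28.3, 25.9 and 25.3 CPM (log2 fold change -0.89, SE 0.067). Exons of FBXO16 on the same strand cover 42.4% of its bases, so that its count is uncertain. ZNF496, with 4 fingers, fell to 61.1%, from 70.8, 74.8 and 76.2 CPM to 47.3, 43.8 and 44.5 CPM. The 2 KRAB members among the 8 largest falls were ZNF8, from 11.7, 10.4 and 11.5 CPM to 6.42, 7.18 and 6.74 CPM, and ZNF552, from 12.5, 14.7 and 12.7 CPM to 7.77, 8.33 and 8.31 CPM. Their log2 fold changes were -0.72 (SE 0.114) and -0.71 (SE 0.108). ZNF8 stood at 7.19 unscaled CPM in the shMETTL3 group and entered the selection only through its vector level, so that its size is a description. ZNF8 shares 21.1% of its 50-base words with the readthrough gene ZNF8-ERVK3-1, and ZNF552 shares 18.4% with ZNF587B. The other 4 KRAB members called lower were ZNF595, ZNF584, ZNF331 and ZNF561, at log2 fold changes of -0.44, -0.36, -0.35 and -0.31, and 54.7% of the words of ZNF595 are shared with another gene.

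The members with the highest levels carry no KRAB A box. ZNF664 stood at 220, 210 and 189 CPM in vector and at 200.3, 193 and 195 CPM in shMETTL3 libraries, and was not called (log2 fold change -0.07, 95% interval -0.19 to 0.04). Without vector replicate 3 it was called, at -0.14 (adjusted p = 0.00684), and likewise with offsets for GC content and length, at -0.15 (adjusted p = 0.00376). ZNF207, also named BuGZ, a kinetochore and spindle protein, was 1.16 times its vector level, from 161, 161 and 160 CPM to 189, 185 and 186 CPM (log2 fold change 0.22, SE 0.049, adjusted p = 0.000328), but stood at 0.029 with those offsets (adjusted p = 0.55). ZNF146, which consists almost wholly of fingers, rose 1.47-fold, from 134, 128 and 115 CPM to 191, 184 and 180 CPM. ZNF609 fell to 73.7%, from 151, 147 and 169 CPM to 114, 122 and 108 CPM (log2 fold change -0.44, SE 0.059). ZNF592 and ZNF623, at means of 92.5 and 67.3 CPM in vector libraries, were not called, with 95% intervals of -0.07 to 0.15 and -0.05 to 0.18. With library size as the only scaling both were called, at 0.22 and 0.24 (adjusted p = 0.000856 and 0.000571). Divided by transcript length, the levels of ZNF664 and ZNF146 were 46.7 and 46.5 CPM per kb, followed by ZNF581 with 25.2.

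The 3 members with log2 fold changes nearest 0 were ZNF589 at 0.0016, ZNF740 and ZNF394. Their 95% intervals were -0.22 to 0.22, -0.12 to 0.11 and -0.17 to 0.18. ZNF740 shares 23.2% of its bases with exons of CSAD and ITGB7 on the opposite strand.

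A group of 10 members known to act on RNA or protein was chosen after their values were seen, so that its counts are only a description. Of these, 7 were called higher and 3 lower, where 66.6% of all tested genes were called. Beside ZNF598 and ZNF207 it holds ZNF622, which matures the large ribosomal subunit and rose from 33, 32.4 and 35.4 CPM to 40.9, 42.2 and 40.8 CPM. ZNF638, a nuclear RNA-binding protein that works with the HUSH complex on retroviral DNA, rose from 55.6, 45.4 and 51.7 CPM to 88.9, 84.1 and 81.4 CPM (log2 fold change 0.74, SE 0.065). ZNF326, of the DBIRD complex that links elongation to splicing, ZNF451, a SUMO ligase, ZNF830, a spliceosome-associated protein, and ZNF106 rose by log2 fold changes of 0.63, 0.59, 0.35 and 0.37. Exons of an antisense gene cover 13.7% of ZNF451. ZNF346, which binds double-stranded RNA, fell from 18.4, 19.2 and 23.1 CPM to 17.3, 16.6 and 17.2 CPM (log2 fold change -0.25, SE 0.089, adjusted p = 0.0169). That call was lost without vector replicate 3 (log2 fold change -0.15, adjusted p = 0.134), without shMETTL3 replicate 2 (-0.23, adjusted p = 0.061), with DESeq2 (adjusted p = 0.078) and with library size as the only scaling (-0.071, adjusted p = 0.486). ZNF385A, also RNA-binding, fell from 20.7, 20.8 and 28.6 CPM to 16.8, 16.2 and 18.8 CPM (log2 fold change -0.44, SE 0.102). It stood at -0.28 without vector replicate 3, the library at 28.6 CPM, and at -0.26 with library size as the only scaling, and was called in both.

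Close relatives did not always move alike. The 6 pairs given here were chosen after their values were seen, and the differences within pairs were not tested. ZNF503 and ZNF703 are corepressors of 1 small family. ZNF503 rose from 27.2, 28.3 and 29.2 CPM to 53.8, 57.6 and 54.4 CPM (log2 fold change 0.97, SE 0.064), while ZNF703 went from 20.9, 20.5 and 23.8 CPM to 18.6, 19 and 19.5 CPM (log2 fold change -0.19, SE 0.081, adjusted p = 0.0421). The call of ZNF703 was lost without vector replicate 3 (adjusted p = 0.182), without each of the shMETTL3 libraries (0.118, 0.0956 and 0.0554), with DESeq2 (0.154), with offsets for GC content and length (0.233), with no filter (0.0516), with at least 10 counts in every library (0.0648), with upper-quartile scaling (0.0727) and with library size as the only scaling (0.881). ZNF143, an activator of small nuclear RNA genes, and its relative ZNF76 both fell, by log2 fold changes of -0.26 (SE 0.080) and -0.28 (SE 0.082), though neither was called with library size as the only scaling (-0.085 and -0.11, adjusted p = 0.357 and 0.266). ZNF281 and ZNF148, which bind similar GC-rich sites, both rose, by 0.54 (SE 0.065) and 0.73 (SE 0.081). ZNF518A rose by 0.47 (95% interval 0.30 to 0.65), or 0.30 with the GC and length offsets, and ZNF518B by 1.16 (0.92 to 1.40). ZNF33A rose by 0.55 (0.37 to 0.72), while ZNF33B stood at -0.01 (-0.19 to 0.16), with 7.02% and 7.13% of their words shared. ZNF33B stood above 0 under upper-quartile and library-size scaling and without vector replicate 3, and was not called there either. ZNF580 and ZNF581, neighbours on chromosome 19, fell, at log2 fold changes of -0.57 and -1.08, and part of ZNF580 lies under exons of ZNF581. With the GC and length offsets ZNF580 stood at -0.28 and was still called (adjusted p = 0.00119).

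The partners through which KRAB proteins repress were called about as often as other genes. Of 26 genes listed, EHMT2 and DAXX were listed at 0 in every library, and of the other 24, 8 were called higher, 8 lower and 8 were not called, with a median log2 fold change of 0.013. These are 66.7% called, 33.3% higher and 33.3% lower, against 66.6%, 33.7% and 32.9% of all tested genes. With library size as the only scaling, 13 were called higher and 3 lower. That scaling called 44.6% of all tested genes higher and 23.2% lower, so that the background moved the same way. TRIM28, the corepressor that binds the KRAB domain, was at 420.0, 428 and 474 CPM in vector and at 377, 392 and 398 CPM in shMETTL3 libraries (log2 fold change -0.18, SE 0.053, adjusted p = 0.00388). SETDB1, the histone H3 lysine methyltransferase it recruits, fell from 43.6, 43.5 and 48.3 CPM to 35.7, 40.4 and 36.2 CPM (log2 fold change -0.27, SE 0.068). The groups did not overlap in these 2 genes. With library size as the only scaling, TRIM28 stood at -0.00405 and SETDB1 at -0.0939, and neither was called (adjusted p = 0.948 and 0.215). With the GC and length offsets TRIM28 stood at -0.099 and was called. Among HP1 proteins, CBX5 was lower, CBX1 was higher and CBX3 was not called, at -0.19, 0.22 and 0.10. CHD3, MORC2 and DNMT1 fell by log2 fold changes of -0.37, -0.39 and -0.31, and SUV39H2 and SUMO2 by -0.29 and -0.16. With library size as the only scaling CHD3, MORC2 and DNMT1 stood at -0.19, -0.22 and -0.14 and were called. CBX5 was at -0.30 with the GC and length offsets. CBX5, SUV39H2 and SUMO2 were not called with library size as the only scaling, at -0.019, -0.12 and 0.013. SUV39H2 also lost its call without vector replicate 2 and without shMETTL3 replicate 2 or 3, at -0.20, -0.24 and -0.28, and SUMO2 without shMETTL3 replicate 3, at -0.14.

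ATRX, a chromatin remodeller found at zinc finger genes, rose from 20.5, 19.99 and 16.5 CPM to 45.9, 49.0 and 45.2 CPM (log2 fold change 1.29, SE 0.077, adjusted p = 2.88e-14) and lies on chromosome X. SMARCAD1, MPHOSPH8, EHMT1, HDAC2, SUV39H1 and DNMT3B were also called higher, between 0.19 and 0.48, with SMARCAD1 at 0.32 under the GC and length offsets. SUV39H1 lost its call without vector replicate 1 or 2 and without shMETTL3 replicate 1, at 0.29, 0.30 and 0.22, DNMT3B without vector replicate 1 or 2, at 0.27 and 0.31, and HDAC2 without vector replicate 3 or shMETTL3 replicate 1, at 0.11 and 0.13, and with GC and length offsets, at 0.0187. With DESeq2, SUV39H1, SUV39H2 and DNMT3B were not called (adjusted p = 0.146, 0.14 and 0.0765). ATF7IP, CHD4, HDAC1, DNMT3A, UHRF1, FAM208A and PPHLN1 were not called. Of the members themselves, ZNF274, a KRAB protein known to bring SETDB1 to the ends of zinc finger genes and named here after its values were seen, was not called, at 19.8, 18.6 and 21.3 CPM in vector and 19.6, 18.4 and 16.7 CPM in shMETTL3 libraries (95% interval of the log2 fold change -0.29 to 0.06). Its translation here ended after 209 residues, in which no finger or SCAN domain was found, so that motifs beyond that point were missed.

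Values differed by position on the genome. Of the members, 55 lay on chromosome 19, with 22 called higher, 11 lower and a median log2 fold change of 0.049. The 947 tested genes of chromosome 19 had a median of -0.18, with 220 called higher and 425 lower. Restricted to at least 8 unscaled CPM in both groups, the 42 members there had 12 called higher, 9 lower and a median of -0.00028, and the 511 tested genes had 65, 327 and -0.31. The 40 KRAB members on the chromosome had a median of 0.17, with 19 called higher and 5 lower, and the 15 with fingers but no box one of -0.17, with 3 called higher and 6 lower. Members on chromosomes other than 19 and X numbered 123, with 67 called higher, 19 lower and a median of 0.25. Scaled by library size alone, 31 members on chromosome 19 were called higher and 8 lower. Over all chromosomes, 44.6% of tested genes were then called higher and 23.2% lower.

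Of the 6 members on chromosome X, 5 were called higher and 1 lower. ZNF182, ZNF41, ZNF449 and ZNF75D stood under 8 unscaled CPM in the vector group and entered the selection only through their shMETTL3 level, so that their counts and sizes are a description. Of the 460 tested genes of the chromosome 376 were called higher and 25 lower, with a median of 0.74, and of the 239 with at least 8 unscaled CPM in both groups 222 and 5, with a median of 0.70. ZNF275, with 11 fingers, rose from 23.8, 28.8 and 25.9 CPM to 69.7, 74.4 and 66.2 CPM (log2 fold change 1.42, SE 0.070, adjusted p = 4.49e-16). The KRAB members ZNF182 and ZNF41 rose from 5.18, 3.71 and 4.11 CPM to 11.0, 11.7 and 11.6 CPM and from 7.52, 5.63 and 6.25 CPM to 14.4, 15.2 and 14.1 CPM. ZNF449 and ZNF75D rose by log2 fold changes of 0.93 (SE 0.108) and 0.63 (SE 0.104). ZNF185 went the other way, from 21.9, 22.7 and 23.8 CPM to 14.8, 16.8 and 14.9 CPM (log2 fold change -0.55, SE 0.083). It encodes a LIM domain protein of the actin cytoskeleton and no C2H2 finger was found in it. The part of the shift of the chromosome in these values was not tested, and without its 6 members the list had 90 called higher, 30 lower and a median of 0.20.

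By the rule that starts lie at most 250 kb apart and at least 4 members join, 10 clusters were found. In 1 of them all members were called lower and in another all were called higher. Clusters hold members that passed the selection only through 1 group. Among these, ZNF567, ZNF264, ZNF266 and ZNF425 did so through shMETTL3, and ZNF524 and ZNF8 through vector. The cluster counts were not repeated for members at 8 CPM or more in both groups, so that they are a description. ZNF579, ZNF524, ZNF865, ZNF580 and ZNF581 lie within 68.9 kb, chr19:56088140-56156989, and no KRAB A box was found in them. Their median log2 fold change was -0.57 and their median GC content 69.1%. ZNF579, the least changed, went from 19.3, 23.4 and 22.3 CPM to 15.7, 17.6 and 17.4 CPM (log2 fold change -0.36, SE 0.087), but was not called with library size as the only scaling (-0.18, adjusted p = 0.0657), and ZNF865 was at -0.50 (SE 0.098). With the GC and length offsets ZNF580 stood at -0.28, as given above. Each of the 5 kept its groups apart. Of the other 3 tested genes in this stretch, 1 was called lower and 0 higher.

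The opposite held for ZNF146, ZNF566, ZNF260 and ZNF567, within 513 kb at chr19:36705504-37218603. All 4 were called higher, with a median of 0.63 and a median GC content of 37.2%. ZNF567 passed the selection only through its shMETTL3 level. ZNF260 rose from 15.3, 16 and 13 CPM to 21.4, 19.9 and 19.8 CPM (log2 fold change 0.46, or 0.30 with the GC and length offsets), and ZNF567 from 7.63, 6.11 and 6.74 CPM to 12.2, 13.8 and 11.7 CPM. Of 7 other tested genes there, 4 were called higher and 0 lower. At chr19:44416776-44741421, where all 5 members have a KRAB A box, ZNF45 rose from 16.3, 13.7 and 15.6 CPM to 30.8, 32.1 and 31.6 CPM (log2 fold change 1.05, SE 0.079), ZNF224 and ZNF225 were also called higher, and ZNF226 and ZNF227 were not called. Another 8 ZNF symbols of that stretch lay under 8 CPM, and 6 of these were called higher and 0 lower.

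The largest cluster, with 11 members from ZNF264 to ZNF587 at chr19:57702868-58376485, held opposite changes side by side, 5 called higher and 1 lower. ZNF264 doubled, from 5.52, 6.58 and 6.19 CPM to 11.9, 13 and 12.5 CPM (log2 fold change 1.03, SE 0.115), while ZNF552, given above, fell. Next to it, at chr19:58694396-58986803, ZNF8 and ZNF584 were called lower and ZNF274 and ZNF324 were not called. On chromosome 7, 6 of 9 members at chr7:148766733-149321843 were called higher, from ZNF425 at 1.43 down to ZNF212 at -0.01, which was not called. ZNF746 lost its call with no filter (adjusted p = 0.0524, edgeR) and with DESeq2 (0.118). It also lost it without vector replicate 1 (0.0979, edgeR) and without shMETTL3 replicate 2 or 3 (0.0504 and 0.151). ZNF767P lost its call with DESeq2 (0.12) and without vector replicate 1 or shMETTL3 replicate 1 (0.113 and 0.0794, edgeR). In the cluster of ZNF266, ZNF121, ZNF561 and ZNF562, ZNF266 rose from 6.69, 6.52 and 6.31 CPM to 13.2, 12.6 and 13.4 CPM, ZNF561 fell to 80.5%, a call lost with library size as the only scaling (log2 fold change -0.14, adjusted p = 0.138), and the other 2 were not called. Of the pair of clusters on chromosome 16, one had ZNF75A and ZNF263 called higher of 5, and the other had ZNF689 and ZNF747 called higher and ZNF629 and ZNF48 lower of 5. ZNF747 lost its call with DESeq2 (adjusted p = 0.0504). ZNF48, at -0.20, lost it with library size alone (-0.022), DESeq2 (adjusted p = 0.109) and the GC and length offsets (0.0522), without vector replicate 1 or 2 (0.0602 and 0.0513) and without shMETTL3 replicate 2 or 3 (0.0704 and 0.086). Of 6 members in the cluster on chromosome 8, ZNF251 and ZNF252P were called higher.

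Values also differed by GC content of the transcript. All tested genes with an annotated transcript were divided at 43.8% and 53.8% GC into parts of equal size. Of 74 members in the low part, 50 were called higher and 6 lower, with a median log2 fold change of 0.51, against 0.14 for all tested genes of that part. The 55 members in the middle part had 28 called higher, 7 lower and a median of 0.21, against 0.0063. In the high part, the 55 members had 16 called higher, 18 lower and a median of -0.088, against -0.13. The background also differed by part. Called higher were 43.3%, 33.8% and 27.9% of tested genes in the low, middle and high parts. Called lower were 25.2%, 33.2% and 41.6%. Restricted to at least 8 unscaled CPM in both groups, the medians of the 3 parts were 0.35, 0.12 and -0.098 for members and 0.11, -0.034 and -0.20 for all tested genes. Within the low, middle and high parts, KRAB members had medians of 0.56, 0.30 and 0.21 and those with fingers but no box 0.46, 0.14 and -0.17. These class medians include members that reached 8 CPM only through 1 group, and were not repeated without them. Over all parts, the medians without them were 0.21 for KRAB members and 0.070 for those with fingers but no box. Across the 184 members, Spearman's rho between GC content and log2 fold change was -0.44 and Pearson's r was -0.43, a description over genes that share libraries and clusters. Over 14023 tested genes with an annotated transcript, rho was -0.15. With offsets for GC content and transcript length in each library, 97 members were called higher and 33 lower, with a median of 0.21, and the medians of KRAB members and those with fingers but no box were 0.34 and 0.081.

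**Figure D4:**
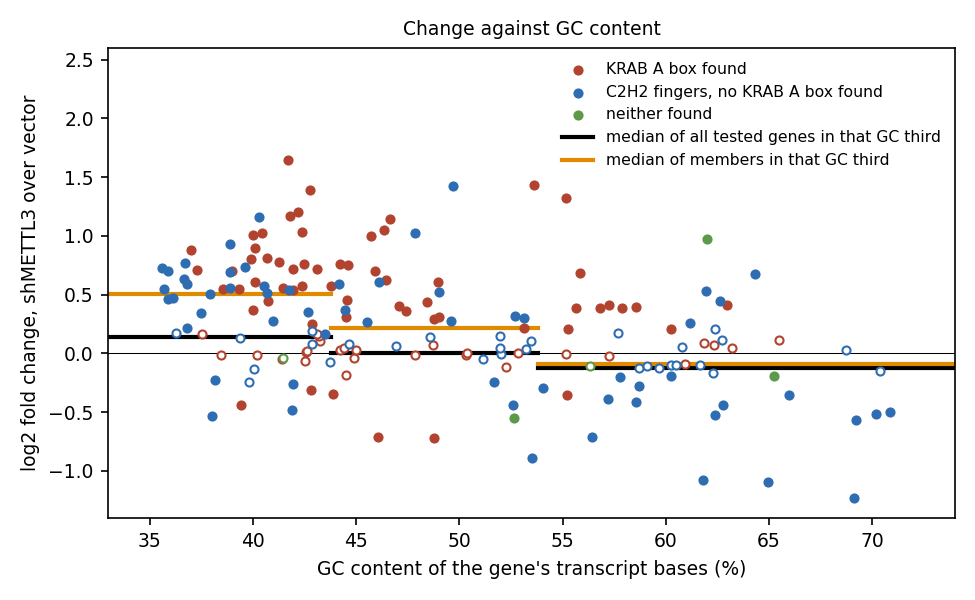
Log2 fold change (y axis) of members against GC content of the transcript in percent (x axis), coloured by protein class and filled where called. Orange bars give the median of members in each GC part, 0.51, 0.21 and -0.088, and black bars that of all tested genes, 0.14, 0.0063 and -0.13.

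The members were also grouped by number of fingers. For comparison, 33.7% of all tested genes were called higher and 32.9% lower, and 35.1% and 38.6% of those at 8 CPM or more. The 38 members with 1 to 4 fingers had 17 called higher, 13 lower and a median of 0.032, and the 60 with 5 to 9 had 27, 9 and 0.14. The 48 with 10 to 14 fingers had 30 called higher, 4 lower and a median of 0.39, and the 28 with 15 or more had 15, 3 and 0.40. In those with at least 8 unscaled CPM in both groups the medians were 0.032, 0.10, 0.26 and 0.055, so that they did not rise steadily with the number. Spearman's rho with the number of fingers was 0.26 over 181 members, and the number goes together with the KRAB box, length and GC content. For GGACT, a common core of m6A sites, counted per kb of transcript, rho was -0.22 over the members and -0.032 over all tested genes. Modification itself was not measured in these libraries.

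Relatives outside the selection gave the following counts, where 33.7% of all tested genes were called higher and 32.9% lower. Of the 197 ZNF symbols tested under 8 CPM, 102 were called higher (51.8%) and 15 lower (7.61%), with a median of 0.45. The 139 of these with a KRAB A box had a median of 0.48. Of 17 ZSCAN genes, 8 were called higher and 1 lower, with a median of 0.29, and of 7 ZKSCAN genes, 3 and 1, with a median of 0.12. Of 37 ZBTB genes, whose fingers follow a BTB domain, 14 were called higher and 10 lower, with a median of 0.10. Of 15 ZFP genes, 6 and 3 were called, with a median of 0.049. The 16 members with a SCAN domain had 8 called higher, 1 lower and a median of 0.16.

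RefSeq's promoter windows of GRCh38.p14, from 250 bases before to 50 bases after the start site, were matched for 151 members. CCGGAAG, the core bound by ETS factors, was in 60 of these on either strand, or 39.7%, against 10.7% of all 27305 windows, 18.5% of windows of tested genes and 21.4% of those at 8 CPM or more. It was in 43.8% of the windows of KRAB members and 37.8% of those of members with fingers but no box. GGGCGG was in 62.3% of the members' windows and 72.6% of those of tested genes at 8 CPM or more, CCAAT in 37.7% and 36.8%, TGACGTCA in 5.96% and 3.58%, GCCATNTT in 11.3% and 11.6%, and TATAAA in 2.65% and 4.96%. CTCGCGAG, GCATGCGC and TGANTCA were in 1.32%, 5.96% and 3.97% of the members' windows and in 2.32%, 6.04% and 4.06% of those of tested genes at 8 CPM or more. The searched letters can overlap one another, and a match is no proof of binding.

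Windows with CCGGAAG belonged to members of both directions. Of the 60 members with it, 29 were called higher and 12 lower, with a median log2 fold change of 0.18, and of the 91 without it, 52 and 11, with a median of 0.35. The windows of ZNF268, the largest rise, and ZNF598, the fall with the smallest adjusted p among the 8 largest falls, each hold it once and are shown with the match in capitals. In ZNF268 the match is on the opposite strand.
ZNF268 promoter, GRCh38.p14 chr12:133181245-133181544, plus strand: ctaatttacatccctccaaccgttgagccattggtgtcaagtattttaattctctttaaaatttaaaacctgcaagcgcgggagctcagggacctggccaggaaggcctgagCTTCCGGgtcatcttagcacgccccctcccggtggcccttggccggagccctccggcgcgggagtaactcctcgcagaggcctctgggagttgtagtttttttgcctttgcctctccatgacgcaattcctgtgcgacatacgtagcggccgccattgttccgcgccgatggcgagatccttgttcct
ZNF598 promoter, GRCh38.p14 chr16:2009772-2010071, minus strand: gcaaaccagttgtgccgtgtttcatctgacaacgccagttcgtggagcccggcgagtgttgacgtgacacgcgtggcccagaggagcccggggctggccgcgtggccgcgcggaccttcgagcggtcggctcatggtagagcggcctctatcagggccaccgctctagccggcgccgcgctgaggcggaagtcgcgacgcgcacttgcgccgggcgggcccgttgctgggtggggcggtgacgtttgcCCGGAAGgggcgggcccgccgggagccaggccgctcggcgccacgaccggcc
The match begins 138 bases before the start site in ZNF268 and 2 bases before it in ZNF598.

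Reads of zinc finger genes are hard to assign, since members overlap and resemble one another. Exons of other genes covered over 10% of the transcript in 20 members on the same strand and in 24 on the opposite strand, and in 23 members over 10% of the 50-base words occurred in other genes. The 135 members at or under 10% on all counts had 73 called higher, 21 lower and a median of 0.26.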

How the data were processed

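RNA from 3 vector and 3 shMETTL3 A549 libraries had been sequenced. The authors deposited raw counts, whole numbers of reads per gene and library for 57781 symbols, without normalization. Per the submitters' processing notes, reads were trimmed with cutadapt 3.0, mapped to hg19 with HISAT2 2.2.1, sorted with SAMtools 1.13 and counted with HTSeq 0.13.5, with DESeq2 as the test; the paper gives other versions of the mapper and counter. Annotation and strand setting are not given in the sources used here. Reads shared by overlapping genes or copies may be dropped or split, and some members overlap or resemble other genes.

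Counts were scaled by TMM, filtered by filterByExpr and tested by edgeR 4.0.16's quasi-likelihood test (R 4.3.3) on group alone, with Benjamini-Hochberg adjustment over 15125 genes and calls at an adjusted p under 0.05. Standard errors (SE) were derived from each unshrunk coefficient and its F statistic. METTL3's permutation test used log2(CPM + 0.1). Intervals are at 95%. Depths of 14931426 to 19108928 counts put 3 counts at 0.157 to 0.201 CPM; such limits cover counting error only.

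Positions, GC content, lengths and coding sequences came from GENCODE v44 lifted to GRCh37, which matched 92.7% of tested genes, older symbols being matched through RefSeq synonyms. A table of proteins was not used here. Fingers were found by the spacing of cysteines and histidines in translated transcripts, and KRAB A boxes and SCAN domains by profiles of 36 and 40 residues with at least 20 bits. A truncated or alternative transcript can hide a motif.

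The members and lists were chosen with earlier results of these data known. The genes named are METTL3, the 8 largest rises and 8 largest falls among called members without overlap, the 6 highest levels, the 3 members and 3 other symbols nearest the threshold, the members on chromosome X, the 3 nearest to no change, the KRAB partners and the extremes of each cluster; others are said to be chosen later. Alternatives were other scalings, filters, DESeq2 1.42.0, limma-voom (limma 3.58.1), leaving out each library, a block for replicate number, offsets for GC content and length (loess, span 0.3), thresholds and membership. The functions were tested on simulated data.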

Additional observations from a re-analysis of the deposited data

How the results depend on the processing

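Whether the replicate numbers pair the libraries is not stated. Deviations of same-numbered libraries from their group means correlated at 0.052, -0.0066 and 0.033, which cannot settle it. A block for the replicate number gave 127 called members, 96 higher and 31 lower, with a median log2 fold change of 0.21, and moved the median of ZNF symbols under 8 CPM to 0.48. It changed no other call count by over 1.5 times. With each library left out in turn, called members numbered 119 to 129, with 90 to 98 higher and 27 to 33 lower. The medians then ran from 0.21 to 0.24 for members, 0.33 to 0.39 for KRAB members, 0.090 to 0.11 for those with fingers but no box, 0.025 to 0.10 on chromosome 19 and 0.39 to 0.44 for ZNF symbols under 8 CPM. On chromosome 19 the value was 0.025 without vector replicate 2, 0.091 without vector replicate 1, 0.092 without vector replicate 3 and 0.10 without shMETTL3 replicate 2.

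Library size alone gave medians of 0.38 for members, 0.56 for KRAB members, 0.28 for those with fingers but no box, 0.22 on chromosome 19, 0.63 for ZNF symbols under 8 CPM and 0.19 for the KRAB partners, with 15 members with fingers but no box lower and 13 partners higher and 3 lower. Upper-quartile scaling gave 0.23, 0.13, 0.072 and 0.48 for members, those with fingers but no box, chromosome 19 and ZNF symbols under 8 CPM. At least 10 counts in every library gave 0.23, 0.13, 0.067 and 0.32 for the same groups. No filter gave 0.0963 for those with fingers but no box and 0.0363 on chromosome 19, and DESeq2 0.10 for those with fingers but no box, with 115 members called. Offsets for GC content and length gave 0.34 for KRAB members, 0.081 for those with fingers but no box and 0.35 for ZNF symbols under 8 CPM. The cause was not tested. The median of the KRAB partners, 0.013, changed sign to -0.000131 with no filter, -0.055 with the offsets, and in 3 of the fits that left out a library, which ran from -0.024 to 0.030 (-0.000667 without vector replicate 2, -0.024 without vector replicate 3 and -0.00431 without shMETTL3 replicate 1).

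A minimum absolute log2 fold change of 1 left 18 members, 15 higher and 3 lower, because it removes small changes. A mean of at least 16 CPM left fewer members, 78 of them called, 52 higher, with a median of 0.15, and at least 4 CPM gave a median of 0.28. At least 8 CPM in each group gave 0.13, and members with little overlap, an alternative chosen after seeing the data, 0.26. Of the values of 46 named members under 15 alternatives, 644 kept their direction and side of the threshold, 7 passed it newly, 3 no longer passed it and 36 changed sign. These 36 belong to 9 members not called as reported, and 1 of them was called, ZNF740 at 0.17 with library size alone (adjusted p = 0.012, edgeR). That scaling also turned ZNF664 to 0.10, ZNF197 to 0.16, ZNF212 to 0.17, ZNF324 to 0.15 and ZNF517 to 0.087. Upper-quartile scaling turned ZNF197 to 0.0078, ZNF740 to 0.017, ZNF212 to 0.015 and ZNF324 to 0.0015, and RLE scaling ZNF589 to -0.0019. At least 10 counts in every library turned ZNF197 to 0.0026, ZNF740 to 0.012 and ZNF212 to 0.010. No filter turned ZNF589 to -0.011 and ZNF394 to -0.0061, and DESeq2 to -0.0046 and -0.000069. The offsets turned ZNF592 to -0.038, ZNF589 to -0.043 and ZNF394 to -0.0070. With a library left out, ZNF197 ran from -0.081 to 0.025, ZNF589 from -0.049 to 0.072, ZNF740 from -0.035 to 0.014, ZNF212 from -0.15 to 0.10, ZNF394 from -0.064 to 0.052 and ZNF324 from -0.088 to 0.10.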
